A study of Sus scrofa with 35 samples.

Results

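The heat response of F1 pigs was set against the heat responses of their parental breeds, Creole and Large White, in the longissimus dorsi, a back muscle. The quantity examined was a difference of differences: the F1 change, heat stress (HS) minus thermoneutrality (TN), less the mean of the Creole and Large White changes. Its members were all 35 of the 35 arrays of the series, chosen by the breed and temperature on their labels and by no measured value. A value above 0 means that a transcript was further up, or less far down, in HS against TN in F1 than in the average parent.

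Each array carried Cy3-labelled cRNA from the muscle of 1 castrated male pig. There were 6 arrays of Creole TN, 6 of Creole HS, 6 of F1 TN, 5 of F1 HS, 6 of Large White TN and 6 of Large White HS. F1 pigs came from crossing Large White with Créole, a local breed of Guadeloupe. All animals were kept at 1 station on that island, and littermates among them, which the labels do not mark, were treated as independent animals in the fits. TN is labelled 24 °C and HS 30 °C, but the growth protocol puts the challenge at 32 °C, so its temperature is uncertain. The TN group was killed first and the HS group after several days of exposure, so age and slaughter day cannot be told apart from temperature within a breed.

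An F1 animal inherits 1 genome from each parental breed, and a trait in which it departs from the parental mean is said to show a non-additive effect. Pigs hardly sweat, and under heat they eat less, lower their heat production and shift muscle fuel use. In muscle this involves the glycogen and mitochondrial pathways that release energy, chaperones that refold damaged proteins, and fat synthesis, which in pigs takes place mainly in adipocytes, including those lying between muscle fibres.

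Arrays had 58.4% to 75.9% of probes well above background, and no array duplicated another. Muscle markers (the list headed by ACTA1, CKM and TTN, encoding contractile and energy proteins of muscle) averaged log2 17.31 to 17.86 on all arrays, so the labelled tissue matched its markers. On F1 TN replicate 2 the means of 5 stress lists (HSP90 and chaperonins, HSP70 and HSP110, HSP40 co-chaperones, antioxidant enzymes and endoplasmic reticulum folding) lay above, and the mean of slow fibre genes below, all other arrays of its group by a wide gap, so list medians without it are given where it moved them by more than 1.5 times or past 0. Brightness before normalisation, the 75th percentile of the log2 intensity, differed between HS and TN by 0.07 in F1, 0.24 in Creole and 0.23 in Large White, a difference of differences of -0.17 (SE 0.15).

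No transcript met the threshold of an adjusted p of 0.05 for a heat response in F1 that differed from the parental mean. Of 40649 probes, 0% were called by limma, with a smallest adjusted p of 0.807. Without adjustment, 2218 probes had p below 0.05, of which 1523 (3.75% of all probes) were higher in F1 and 695 (1.71%) were lower. Among the 9474 genes that could be named, each by its brightest probe, the corresponding shares were 4.02% higher and 1.6% lower, and these 2 shares are the background for every count of list members below. Against Creole alone and against Large White alone 0 probes (0%) were called by limma as well, with 2020 and 1891 at an unadjusted p below 0.05, and Creole against Large White gave 0 with 1214. A moderated F-test of any breed by temperature interaction called 0 probes (smallest adjusted p 0.964, 1552 at an unadjusted p below 0.05). The SE of the difference had a median of 0.16 log2 over probes, and its unadjusted 95% confidence interval a median half-width of 0.33. For a typical probe, differences smaller than this could not be resolved even without adjustment. A call after adjustment over all 40649 probes needed a larger difference still. An absent call therefore does not show that F1 and its parents responded alike.

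The change with heat itself was resolved at many more probes. Averaged over the 3 breeds with equal weight, the heat change was called at 6261 probes (15.4% of those tested), 2976 of them higher and 3285 lower in HS. Within single breeds the counts were 2 in F1 (0.00492%), 806 in Creole (1.98%) and 2 in Large White (0.00492%), and with 6 or fewer arrays a side these counts say little about the size of a response. The 2 probes called in F1 both measured STRA6, a receptor for retinol-binding protein, with changes of 1.25 and 1.40 in F1, 0.91 and 1.04 in Creole and 0.49 and 0.67 in Large White. Of the 2 in Large White, 1 was named, UPK2, a urothelial membrane protein, at -0.54 against -0.01 in F1.

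Along the direction common to the 3 breeds, the 6261 heat-responsive probes had a median change of 0.22 log2 in F1, 0.34 in Creole and 0.31 in Large White. The F1 change was smaller than the parental mean at 4678 of them (74.7%), with a median difference of -0.12. It lay below both parental changes at 61.6% of these probes, between them at 21.7% and beyond both at 16.7%. The same count for the other breeds gave a smallest change at 14.2% of probes in Creole and 24.1% in Large White. F1 had the smallest change at 68.1% of the 3285 probes lower in HS and at 54.5% of the 2976 higher in HS. Across all 40649 probes the changes in Creole and Large White were correlated with r = 0.74, against 0.43 for F1 with Creole and 0.41 for F1 with Large White, and the slope of the F1 change on the parental mean change was 0.40. The slopes of Creole and Large White on the mean of the other 2 breeds were 1.08 and 0.77. Those means include F1, whose changes had the smallest SD over probes (0.23, against 0.31 in Creole and 0.25 in Large White), so the 3 slopes are not directly comparable. Noise in the predictor also lowers such slopes, so 0.40 is not the F1 response as a share of the parental one. These figures describe probes, which share arrays and are not independent, and were not tested. The median difference stood between -0.15 and -0.08 with any 1 array left out and was below 0 on all 4 slides that held every group (-0.32 to -0.07). The slope was 0.56 without F1 TN replicate 2 and 0.30 without F1 TN replicate 4. Once the mean of the leukocyte markers entered as a covariate, 2245 probes were called for the average heat change. Among these the median difference was 0.02 and the share with the smallest change in F1 was 31.4%. The leukocyte mean differed between HS and TN by 0.28 in F1, 0.97 in Creole and 0.59 in Large White. With array brightness as a covariate 1953 probes were called, and the share was 36.0%. Both shares thus differ from 61.6% in the set of probes as well as in the fit.

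**Figure D1:**
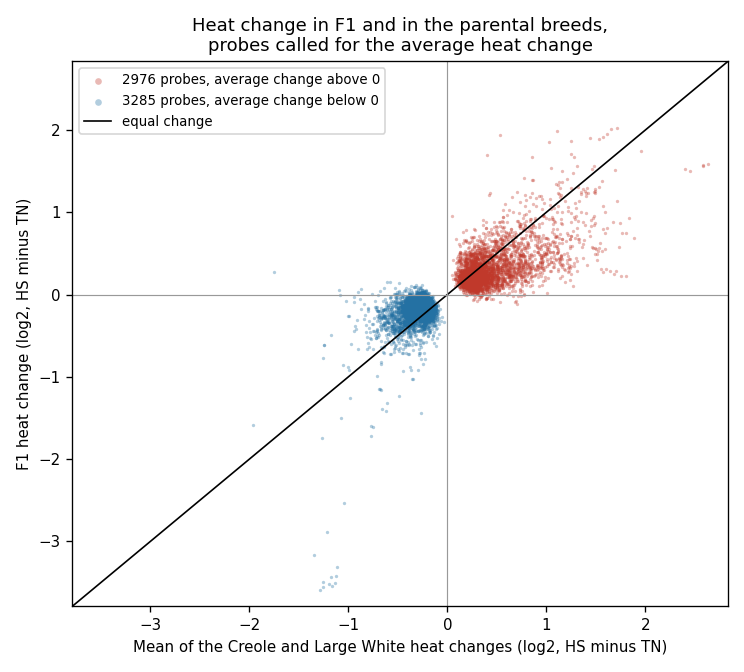
Heat change in F1 (vertical axis, log2 HS minus TN) against the mean heat change of Creole and Large White (horizontal axis, log2) for the 6261 probes called for the average heat change, one point per probe, red where the average change was above 0 and blue where below, with a line of equal change. Most points (74.7%) lie on the side of the line where F1 changed less, and the group near -3.5 on the vertical axis includes probes of PDK4.

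Described by function, the lists differed in whether the F1 heat change lay above or below the parental mean change. In some, such as interferon-stimulated genes, the F1 median change lay between those of the parents. The median difference over all 9474 named genes was 0.02 log2, and 18 of the 33 list medians were above it. No member of any list was called. Median heat changes below 0 in both parents and nearer 0 in F1 were found for, among others, complex I, the TCA cycle, glycolysis and glycogen. Medians above 0 in both parents and lower in F1 were those of leukocyte markers, MHC class II, endoplasmic reticulum folding and immediate-early genes, and by small margins those of HSP90 and chaperonins and of nerve markers. Adipocyte markers were the list with the largest median difference, 0.72. Scaling mattered for the zero line: scaled to spike-in RNAs, the median over all genes moved to -0.17, and only 6 list medians were above 0, but 19 were above the all-gene median and 32 of the 33 lists were on the same side of that median as before. Below 0 under that scaling were the list medians of complex I (-0.02), complexes III and IV and ATP synthase (-0.07), the TCA cycle (-0.06), the pyruvate dehydrogenase complex (-0.07), fatty acid oxidation (-0.12), fasting fuel genes (-0.10), atrophy genes (-0.06), HSP40 co-chaperones (-0.14), clock genes (-0.01), fast fibre genes (-0.05), skeletal muscle markers (-0.04) and aldo-keto reductases (-0.16). After adding the leukocyte covariate the adipocyte median was 0.64, whereas those of complex I, the TCA cycle and glycogen were 0.05, 0.01 and 0.06, and that of the leukocyte markers themselves, which the covariate removes by construction, -0.02.

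**Figure D2:**
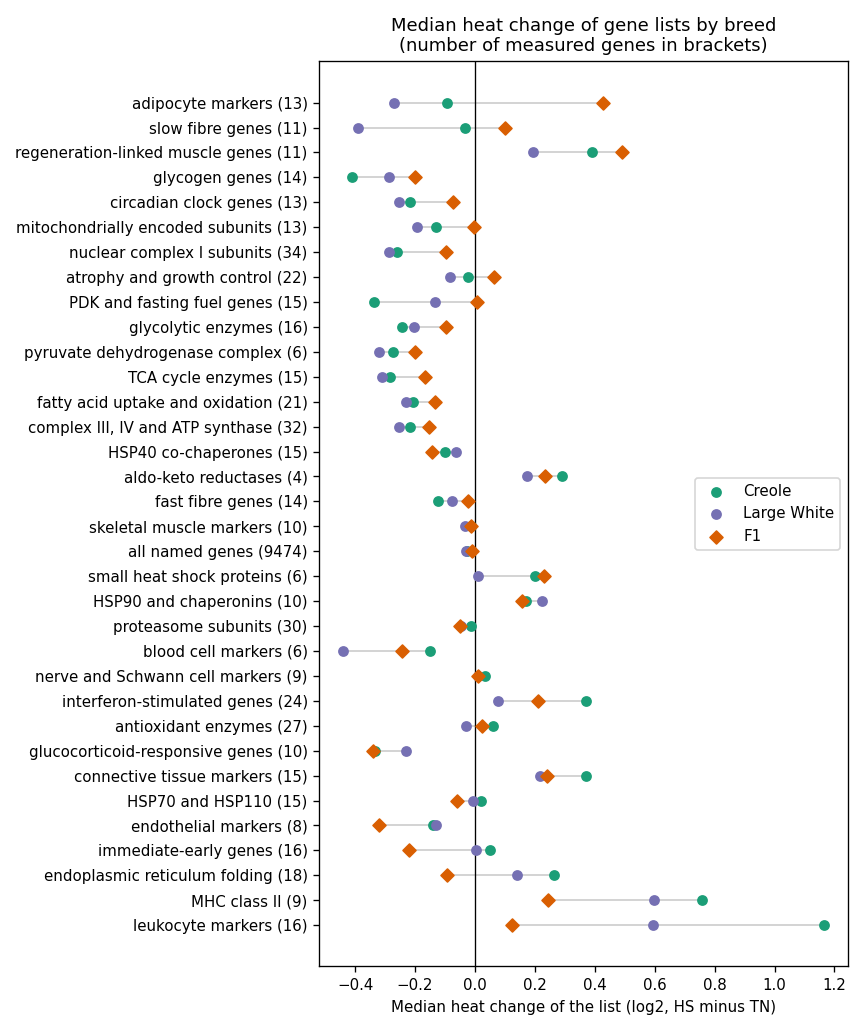
Median heat change (log2, HS minus TN) of each of 33 gene lists and of all 9474 named genes in F1 (diamonds), Creole and Large White (circles), ordered by the median difference between F1 and the parental mean, with the number of measured genes in brackets. F1 lies to the right of both parents for adipocyte markers at the top and to the left of both for leukocyte markers and MHC class II at the bottom.

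For adipocyte and fat synthesis genes the median heat changes of F1 and of its parents had opposite signs. The 13 measured adipocyte markers, genes for lipid droplet proteins, the hormone adiponectin and the enzymes that make fatty acids and triglycerides, had median changes of 0.43 in F1, -0.09 in Creole and -0.27 in Large White. The change was above 0 for 10 of the 13 in F1, 4 in Creole and 3 in Large White, and 0 were called for the average heat change. Of the 13, 10 had a difference above 0, and 8 of 13 had an unadjusted p below 0.05, all higher in F1, beside 4.02% of all named genes. None was called after adjustment over all probes. The markers overlap with fat synthesis as such, since FASN, SCD, ACACA and DGAT2 stand on the list. In bulk muscle fewer cells of a type and less RNA per cell cannot be told apart. Probes for genes that carry the pattern were 60-mers, and the first 30 bases of 3 of them are shown as the scanner files give them, all in lower case since no motif is marked, so that the transcripts measured can be traced.
SCD: tctgaagctagttgtactgatctgagattg
ELOVL6: aaacaaaaagccctgcaggactcttcctga
ADIPOQ: aatatcttctcaggagacaacagcttgagt

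SCD, stearoyl-CoA desaturase, which turns saturated into monounsaturated fatty acids, had the second highest moderated t of all named genes. The SCD probe read 13.31, 13.73, 13.51, 11.71 and 12.61 (log2) on the 5 F1 HS arrays and 11.67, 12.07 and 13.10 on the F1 TN arrays (lowest, median and highest of 6 arrays). It read 12.78, 13.25 and 13.56 in Creole TN, 11.26, 12.58 and 13.26 in Creole HS, 12.51, 13.20 and 13.54 in Large White TN and 11.39, 12.59 and 12.69 in Large White HS. Creole and Large White were high at TN and mostly low at HS, whereas F1 was low at TN, and at HS 3 of its arrays lay among the upper parental TN values while 1 was among the lowest parental HS values. F1 TN and F1 HS overlapped. The change with heat was 0.77 in F1, -0.82 in Creole and -0.77 in Large White, a difference of 1.57 (SE 0.40, unadjusted p = 0.000431), 95% confidence interval 0.75 to 2.38, adjusted p = 0.807. SCD was above its TN mean on 4 of 5 HS arrays in F1, on 1 of 6 in Creole and on 0 of 6 in Large White. All 10 other SCD probes gave a difference above 0 (0.88 to 1.66), each with an unadjusted p below 0.05. Within the 4 slides holding all groups the difference was 0.40 to 2.65. Leaving out any 1 array kept it between 1.38 and 1.88.

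ELOVL6, an elongase that lengthens palmitate to stearate, the substrate of SCD, was chosen after its values were seen and ranked 12th by moderated t. The ELOVL6 probe read 9.07, 9.58, 8.90, 7.54 and 8.54 (log2) on the 5 F1 HS arrays and 7.67, 8.26 and 9.16 on the F1 TN arrays. It read 8.52, 9.22 and 9.35 in Creole TN, 7.57, 8.23 and 9.38 in Creole HS, 8.39, 8.95 and 9.45 in Large White TN and 7.54, 7.93 and 8.62 in Large White HS. F1 HS overlapped every other group but had 3 of its 5 arrays above all Large White HS arrays. Its change was 0.39 in F1, -0.71 in Creole and -1.02 in Large White, a difference of 1.25 (SE 0.36, unadjusted p = 0.00148). FASN, the fatty acid synthase, had changes of 0.43 in F1, -0.41 in Creole and -0.45 in Large White, a difference of 0.86 (SE 0.33, unadjusted p = 0.0126), with all 3 other probes higher as well (0.43 to 0.84). Its values spread widely within F1 HS, from 13.07 to 14.44, against 12.81 to 14.21 in F1 TN.

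ADIPOQ encodes adiponectin, a hormone made by adipocytes and a defining marker of them. The ADIPOQ probe read 11.68, 11.97, 12.03, 11.50 and 11.48 (log2) on the 5 F1 HS arrays and 10.09, 10.96 and 11.59 on the F1 TN arrays. It read 10.67, 11.61 and 12.13 in Creole TN, 10.65, 11.67 and 11.80 in Creole HS, 11.01, 11.67 and 12.31 in Large White TN and 10.11, 11.57 and 12.69 in Large White HS. All 5 F1 HS arrays were above the F1 TN median, and 3 of the F1 TN arrays were below every other TN array. The difference was 0.93 (SE 0.39, unadjusted p = 0.025), and all 9 other probes were higher with an unadjusted p below 0.05. The lipid droplet proteins PLIN1 (0.94, SE 0.34, unadjusted p = 0.0093), CIDEC (1.04, SE 0.35, unadjusted p = 0.0054) and CIDEA (0.72, SE 0.28, unadjusted p = 0.0138) also had differences above 0, as had the enzymes DGAT2 (0.91, SE 0.40) and ACACA (0.44, SE 0.19). The markers that stood apart from these were FABP4, a fatty acid carrier of adipocytes, with a difference of -0.33 (SE 0.47), PPARG, the regulator of adipocyte formation, at -0.34 (SE 0.22), and LEP, encoding leptin, at -0.02 (SE 0.14). The heat changes of FABP4 were above 0 in all 3 breeds, at 0.27 in F1, 0.58 in Creole and 0.61 in Large White.

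**Figure D3:**
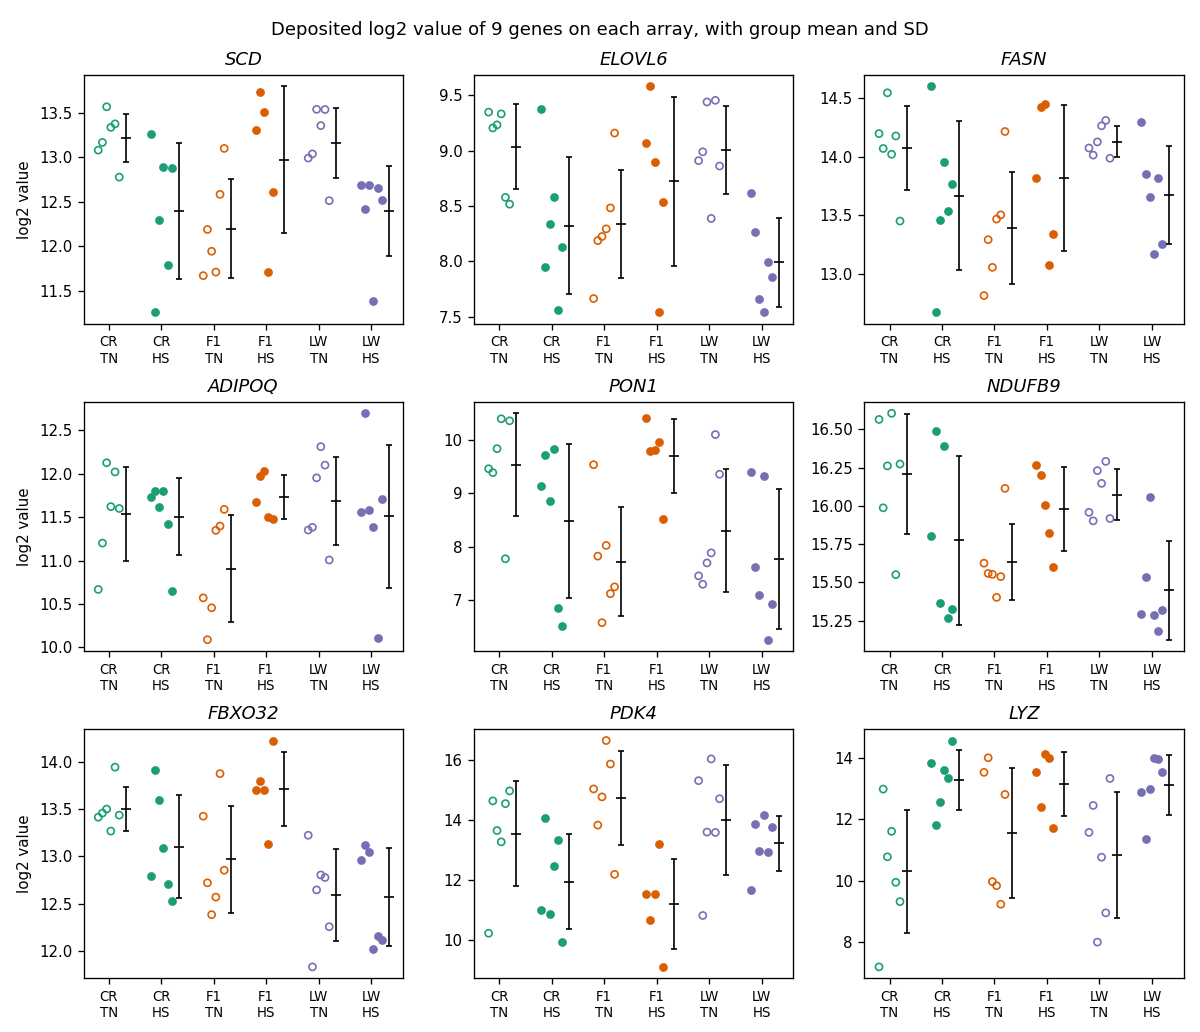
Deposited log2 value of 9 genes on every array of the 6 groups (open circles TN, filled circles HS; CR Creole, LW Large White), with the group mean and SD beside the points. SCD, ELOVL6, FASN and ADIPOQ are lowest in F1 TN among the TN groups, PON1 is at 8.53 to 10.40 in F1 HS against 6.58 to 9.53 in F1 TN, and PDK4 is lowest in F1 HS.

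Across 19 measured genes of fatty acid and triglyceride synthesis, a list written after the adipocyte values were known and partly sharing its genes, 16 had a difference above 0, and 9 had an unadjusted p below 0.05, all higher in F1. The median change was 0.17 in F1, -0.12 in Creole and -0.26 in Large White. SREBF1, the transcription factor that drives fat synthesis genes, was at 0.59 (SE 0.23, unadjusted p = 0.0134), and PNPLA3, a lipase-family protein of lipid droplets, at 0.85 (SE 0.32, unadjusted p = 0.012). ME1, which supplies NADPH, was at 0.43 (SE 0.21). PGD, of the pentose phosphate route to NADPH, was at -0.49 (SE 0.37) and GPAM, which starts triglyceride assembly, at -0.17 (SE 0.13).

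**Figure D4:**
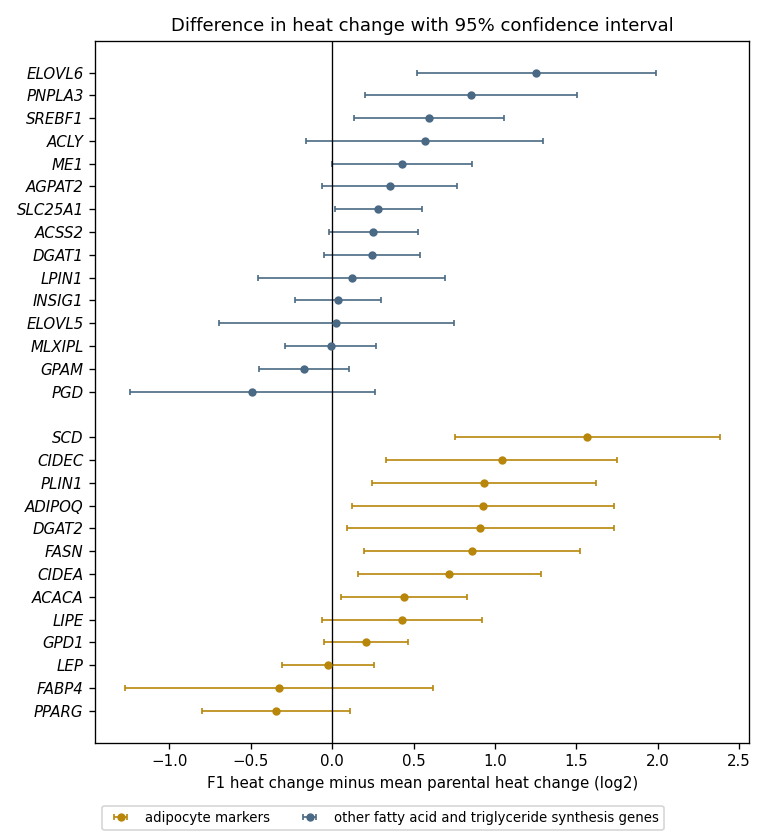
Difference between the F1 heat change and the mean parental heat change (log2, horizontal axis) with its 95% confidence interval for 13 adipocyte markers and 15 further genes of fatty acid and triglyceride synthesis. The intervals are unadjusted, and those of SCD (0.75 to 2.38), ELOVL6, CIDEC and PLIN1 lie above 0 whereas those of PPARG, FABP4, LEP, GPAM and PGD include it.

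The contrast can be split into the gap between F1 and its parents at each temperature. At TN the median gap of the adipocyte markers, F1 minus parental mean, was -0.40, and all 13 gaps were below 0. At HS the median gap was 0.17, with 10 of 13 above 0. For SCD the gap was -0.99 (SE 0.27) at TN and 0.58 (SE 0.29) at HS, so the larger share of the difference lay between the TN groups. The mean over the 13 markers was 10.79 ± 0.38 (SD, n = 6) in F1 TN, 11.17 ± 0.25 (n = 6) in Creole TN and 11.37 ± 0.16 (n = 6) in Large White TN. At HS it was 11.20 ± 0.29 (n = 5) in F1, 11.09 ± 0.24 (n = 6) in Creole and 11.14 ± 0.26 (n = 6) in Large White. Of the 6 F1 TN arrays, 3 lay at 10.45 to 10.49, below every other array of the series, while F1 TN replicate 6 was at 11.39. The range was 10.45 to 11.39 in F1 TN and 10.79 to 11.51 in F1 HS. With this mean as a covariate, the median difference of the list was 0.07, but a covariate made of the same markers removes it by construction.

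**Figure D5:**
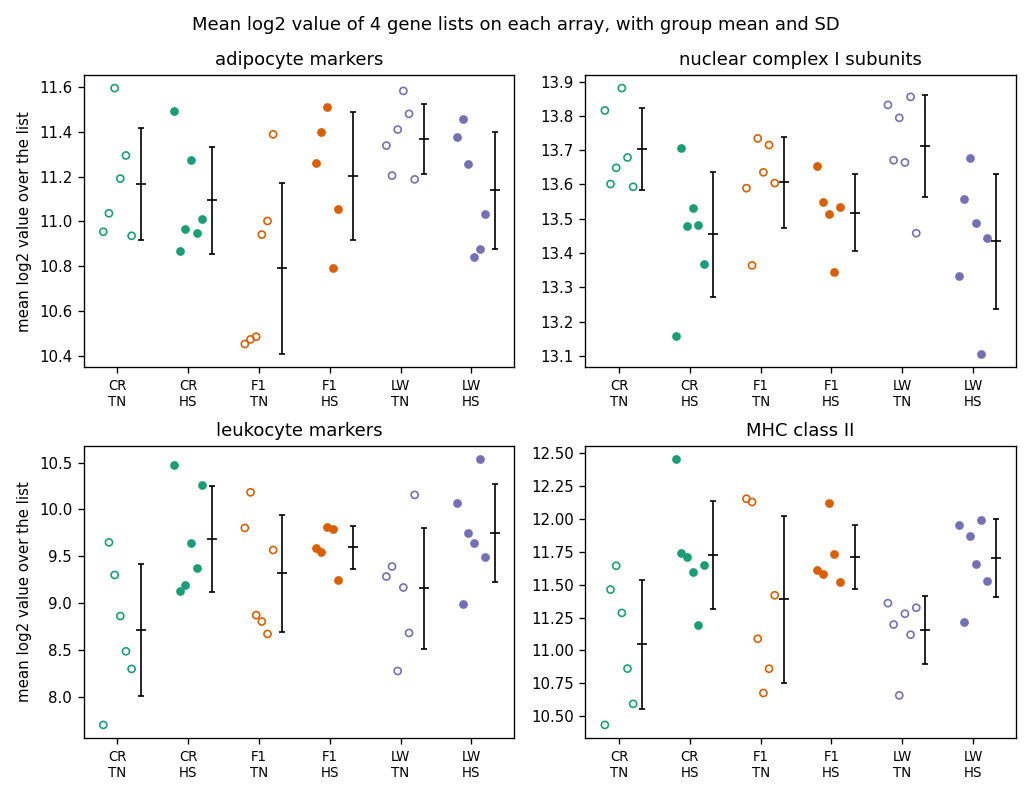
Mean log2 value of 4 gene lists on every array of the 6 groups (open circles TN, filled circles HS; CR Creole, LW Large White), with the group mean and SD. The adipocyte mean of 3 F1 TN arrays is at 10.45 to 10.49, whereas leukocyte means range from 7.70 to 10.54 and overlap between all groups.

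The largest differences of all named genes belonged to PON1 and PON3, members of the paraoxonase family of lactone-hydrolysing enzymes best known from liver and blood, which were singled out after their values were seen. The PON1 probe read 10.40, 9.79, 9.82, 9.95 and 8.53 (log2) on the 5 F1 HS arrays and 6.58, 7.54 and 9.53 on the F1 TN arrays. It read 7.77, 9.65 and 10.39 in Creole TN, 6.51, 8.99 and 9.83 in Creole HS, 7.30, 7.79 and 10.098 in Large White TN and 6.26, 7.36 and 9.40 in Large White HS. All F1 HS arrays but one were above every F1 TN array, and the parental groups were widely spread and overlapped between temperatures. The difference for PON1 was 2.76 (SE 0.79, unadjusted p = 0.00133), 95% confidence interval 1.16 to 4.37, and that for PON3 2.76 (SE 0.81, unadjusted p = 0.00176), with 2 other PON3 probes at 0.56 and 1.92. Both had an adjusted p of 0.807.

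Transcripts for mitochondrial energy release had median heat changes further below 0 in the parental breeds than in F1. Averaged over the breeds, 18 of 34 complex I genes, 19 of 32 genes of complexes III and IV and ATP synthase and 12 of 15 TCA cycle genes fell with heat at an adjusted p below 0.05, beside 9.54% of all named genes. The 34 nuclear-encoded subunits of complex I, the entry point of electrons from NADH into the respiratory chain, had median changes of -0.10 in F1, -0.26 in Creole and -0.29 in Large White. The difference was above 0 for 31 of 34, with a median of 0.16 and 3 at an unadjusted p below 0.05, all higher in F1. The median was 0.08 without F1 TN replicate 2 and -0.02 when scaled to spike-in RNAs, which is 0.15 above the all-gene median under that scaling. Complexes III and IV and ATP synthase gave 27 of 32 above 0 (median 0.08, 0.05 without F1 TN replicate 2), the TCA cycle enzymes 14 of 15 (median 0.10, 0.05 without F1 TN replicate 2), and the 13 subunits encoded by mitochondrial DNA 12 of 13 (median 0.19). Of these 60 genes, 3 had an unadjusted p below 0.05, namely UQCRFS1 of complex III (0.35, SE 0.16, unadjusted p = 0.0366), ND4 (0.22, SE 0.10, unadjusted p = 0.0337) and ND4L (0.28, SE 0.13, unadjusted p = 0.0338). Of 10 other ND4 probes, 1 had the opposite sign. Split by temperature, the median gap of complex I, F1 minus parental mean, was -0.11 at TN and 0.06 at HS. It was -0.10 and 0.02 for the TCA cycle and -0.06 and 0.02 for complexes III and IV and ATP synthase. In these 3 lists the larger share of the difference thus lay between the TN groups, where F1 was lower. The subunits encoded by mitochondrial DNA had gaps of 0.12 at TN and 0.17 at HS.

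NDUFB9, an accessory subunit of complex I, was the member furthest from 0. The first 30 bases of its 60-mer probe are shown because several probes of this gene gave different sizes.
NDUFB9: tttgcctccagcccgaaaggaaggtgattt
The NDUFB9 probe read 16.26, 16.21, 16.00, 15.82 and 15.60 (log2) on the 5 F1 HS arrays and 15.40, 15.56 and 16.12 on the F1 TN arrays. It read 15.55, 16.27 and 16.61 in Creole TN, 15.26, 15.58 and 16.49 in Creole HS, 15.90, 16.05 and 16.29 in Large White TN and 15.18, 15.31 and 16.06 in Large White HS. In F1 TN, 5 of 6 arrays were below all parental TN arrays but 1, and in F1 HS all 5 were above the F1 TN median. The change was 0.35 in F1, -0.43 in Creole and -0.63 in Large White, a difference of 0.88 (SE 0.25, unadjusted p = 0.00121). Its 3 other probes gave 0.31 to 0.63, 2 of them with an unadjusted p below 0.05. NDUFA12 (0.49, SE 0.21) and NDUFB11 (0.29, SE 0.11) were the other members with an unadjusted p below 0.05, and NDUFA10 was the lowest at -0.14 (SE 0.13).

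Carbohydrate genes, too, had median changes nearer 0 in F1 than in either parent. The 14 glycogen genes had median changes of -0.20 in F1, -0.41 in Creole and -0.29 in Large White, with 12 of 14 differences above 0 and 0 at an unadjusted p below 0.05. PYGM, the glycogen phosphorylase of muscle, had changes of -0.38 in F1, -0.65 in Creole and -0.41 in Large White, a difference of 0.15 (SE 0.19). PHKA1, a subunit of the kinase that activates it, was at 0.45 (SE 0.25, unadjusted p = 0.0842), with changes of -0.37, -0.93 and -0.70 in the same order of breeds. GYS1, the glycogen synthase of muscle, was at 0.27 (SE 0.15, unadjusted p = 0.0826). Of the 16 glycolytic enzymes 12 had a difference above 0 (median 0.12), and the lowest p was that of PKM, the pyruvate kinase, with 0.39 (SE 0.22, unadjusted p = 0.0826). The pyruvate dehydrogenase complex, which feeds pyruvate into mitochondria, gave 5 of 6 above 0, with PDHB at 0.13 (SE 0.09), DLD at 0.27 (SE 0.20) and PDHA1 at 0.13 (SE 0.32). Its median of 0.11 was 0.06 without F1 TN replicate 2, -0.01 after array brightness and 0.00 after the leukocyte mean entered as covariate. The median gap, F1 minus parental mean, was -0.19 at TN and 0.02 at HS for glycogen genes. For glycolytic enzymes it was -0.15 and -0.02, and for the pyruvate dehydrogenase complex -0.14 and -0.02. LDHB, a lactate dehydrogenase, had heat changes above 0 in all 3 breeds, at 0.54 in F1, 0.63 in Creole and 0.29 in Large White, a difference of 0.08 (SE 0.17).

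PDK4, the kinase that shuts off pyruvate dehydrogenase when fat is burnt, had a difference below 0. The PDK4 probe read 11.54, 10.66, 11.54, 13.19 and 9.11 (log2) on the 5 F1 HS arrays and 12.19, 14.91 and 16.66 on the F1 TN arrays. It read 10.23, 14.10 and 14.98 in Creole TN, 9.95, 11.74 and 14.09 in Creole HS, 10.82, 14.16 and 16.04 in Large White TN and 11.67, 13.37 and 14.16 in Large White HS. F1 HS held the lowest array of the series and overlapped F1 TN on 1 array only. The change was -3.52 in F1, -1.60 in Creole and -0.78 in Large White, a difference of -2.33 (SE 1.08, unadjusted p = 0.038), 95% confidence interval -4.52 to -0.14. All 10 other probes were below 0 (-2.37 to -1.49), 7 with an unadjusted p below 0.05. Within slides the difference was -3.90 to -0.67. The 15 fasting fuel genes had a median difference of 0.12, which was 0.01 without F1 TN replicate 2 and -0.01 after the leukocyte covariate, and 9 of 15 were above 0. ANGPTL4, an inhibitor of lipoprotein lipase, was at -0.86 (SE 0.72) and TXNIP, an inhibitor of glucose uptake, at -0.55 (SE 0.26, unadjusted p = 0.0449), but PPARGC1A, a coactivator of mitochondrial genes, was at 0.68 (SE 0.27, unadjusted p = 0.0179), with changes of 0.16 in F1, -0.53 in Creole and -0.51 in Large White. FOXO1, a transcription factor of fasting, was at 0.39 (SE 0.17, unadjusted p = 0.0262). UCP3, a mitochondrial carrier, had heat changes of -0.88 in F1, -1.38 in Creole and -0.62 in Large White, a difference of 0.12 (SE 0.62). Of 21 genes of fatty acid uptake and oxidation 17 had a difference above 0, and ECHS1, the enoyl-CoA hydratase, was the 1 with an unadjusted p below 0.05 at 0.44 (SE 0.17, unadjusted p = 0.0163). Its 3 other probes spanned -0.04 to 0.15. The list median of 0.09 was 0.02 without F1 TN replicate 2, and -0.01 after either brightness or the leukocyte covariate.

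Among 22 genes of muscle atrophy and growth control, 15 had a difference above 0, and 4 had an unadjusted p below 0.05, all higher in F1. The median difference of 0.14 was 0.08 without F1 TN replicate 2. The 4 were FBXO32, DDIT4, IGFBP5 and FOXO1. FBXO32, which encodes atrogin-1, a ubiquitin ligase of wasting muscle, was the member with the lowest p. The FBXO32 probe read 13.70, 13.79, 13.70, 13.13 and 14.22 (log2) on the 5 F1 HS arrays and 12.39, 12.79 and 13.87 on the F1 TN arrays. It read 13.27, 13.45 and 13.94 in Creole TN, 12.53, 12.94 and 13.91 in Creole HS, 11.84, 12.71 and 13.22 in Large White TN and 12.03, 12.56 and 13.12 in Large White HS. F1 HS arrays were all above the F1 TN mean, and 4 of 5 were above every Large White array. The difference was 0.95 (SE 0.33, unadjusted p = 0.00722), and its 4 other probes gave 0.95 to 1.03, all with an unadjusted p below 0.05. Here the gap between F1 and its parents was -0.07 at TN and 0.87 at HS, so it lay between the HS groups, unlike that of SCD. DDIT4, an inhibitor of mTOR signalling, was at 1.09 (SE 0.40, unadjusted p = 0.0104) and IGFBP5, a binding protein for insulin-like growth factors, at 0.78 (SE 0.36, unadjusted p = 0.0356). TRIM63, the other classical atrophy ligase, was at -0.21 (SE 0.24). IGF2 (0.15, SE 0.57) and MLST8, a subunit of mTOR complexes (-0.11, SE 0.15), differed by less than their SE.

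Chaperone lists had median differences from -0.10 to 0.08, the outer ones similar in size to that of complexes III and IV and ATP synthase (0.08). Their members were more evenly divided in sign, with 5 of 10, 6 of 15, 8 of 15 and 3 of 6 above 0 in the order that follows. Median differences were -0.02 for 10 genes of HSP90 and chaperonins, -0.10 for 15 of HSP70 and HSP110 (-0.05 without F1 TN replicate 2), 0.08 for 15 HSP40 co-chaperones and -0.01 for 6 small heat shock proteins (0.05 without it). HSP90AB1, a constitutive HSP90, had changes of 0.32 in F1, 0.61 in Creole and 0.34 in Large White, a difference of -0.16 (SE 0.16). HSP90AA1 was at -0.14 (SE 0.27), HSPA8 at -0.10 (SE 0.17), HSPE1, the mitochondrial chaperonin partner, at 0.00 (SE 0.15) and HSPB1 at 0.09 (SE 0.24). The members with the lowest p of their lists were FKBP4 (0.29, SE 0.15), HSPA4 (0.27, SE 0.19), HSPB6 (0.38, SE 0.27) and DNAJB11 (-0.55, SE 0.23, unadjusted p = 0.0208). DNAJB11 works in the endoplasmic reticulum, and among 18 genes of folding in that compartment 16 had a difference below 0, with median changes of -0.09 in F1, 0.26 in Creole and 0.14 in Large White and 0 at an unadjusted p below 0.05. MANF, a folding factor secreted under stress, was at -0.58 (SE 0.31, unadjusted p = 0.0735) and SDF2L1, a partner of HSPA5, at -0.95 (SE 0.54). The list median of -0.25 was -0.16 without F1 TN replicate 2, and it was below 0 within each of the 4 slides.

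Of 27 antioxidant enzymes, 13 were above 0. PRDX5, a mitochondrial peroxiredoxin, was at 0.38 (SE 0.13, unadjusted p = 0.00504) with its 3 other probes at 0.36 to 0.39, whereas HMOX1, haem oxygenase, was at -1.27 (SE 0.61, unadjusted p = 0.0454), GSR, glutathione reductase, at -0.53 (SE 0.25) and GPX7 at -0.39 (SE 0.18). SOD1 (0.04, SE 0.10) and PRDX4 (0.01, SE 0.13) differed by less than their SE. AKR1C1, an aldo-keto reductase, had a difference of 0.17 (SE 0.21). Its gap, F1 minus parental mean, was -0.68 at TN and -0.51 at HS, and another probe of it was among 5 probes (0.0123%) called by limma between F1 and the parental mean at TN, with a gap of -0.84 (adjusted p = 0.0113). The other named gene among the 5 was ELAC2, a tRNA-processing enzyme, with a gap of 0.92 (adjusted p = 0.0113) at TN and 0.30 at HS. At HS 0% of probes were called between F1 and the parental mean. The 30 proteasome subunits had a median difference of -0.03 (0.02 without F1 TN replicate 2), with PSMA1 at -0.25 (SE 0.14).

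Leukocyte and MHC class II transcripts had median heat changes further above 0 in the parental breeds than in F1. The 16 leukocyte markers had median changes of 0.12 in F1, 1.16 in Creole and 0.59 in Large White, and 15 of 16 differences were below 0, none of these at an unadjusted p below 0.05. The leukocyte mean ranged over 8.67 to 10.18 in F1 TN and 9.24 to 9.81 in F1 HS, 7.70 to 9.65 and 9.13 to 10.48 in Creole TN and HS, and 8.28 to 10.16 and 8.99 to 10.54 in Large White TN and HS. The TN groups held both very low and high arrays, and F1 HS was the narrowest group. The difference of this mean was -0.50 with an SE of 0.42. Split by temperature, the median gap of the leukocyte markers, F1 minus parental mean, was 0.43 at TN and -0.10 at HS. At TN, 1 of 16 gaps was below 0. The median gap of the MHC class II genes was 0.32 at TN and -0.02 at HS. For both lists the larger share of the difference thus lay between the TN groups, where F1 was higher.

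LYZ, lysozyme of macrophages and granulocytes, had the largest average heat change upward of all named genes called for it. The LYZ probe read 13.53, 12.38, 14.11, 13.99 and 11.70 (log2) on the 5 F1 HS arrays and 9.23, 11.38 and 14.00 on the F1 TN arrays. It read 7.19, 10.36 and 12.98 in Creole TN, 11.82, 13.47 and 14.56 in Creole HS, 8.0, 11.17 and 13.33 in Large White TN and 11.37, 13.26 and 13.98 in Large White HS. Every group was widely spread, and HS and TN overlapped in each breed. The change was 1.58 in F1, 2.98 in Creole and 2.28 in Large White, a difference of -1.05 (SE 1.13). With the leukocyte mean as a covariate this difference was 0.21, but LYZ is 1 of the markers in that mean, so part of it is removed by construction. The 9 MHC class II genes, which present antigen, had median changes of 0.24 in F1, 0.76 in Creole and 0.60 in Large White. Of these, 8 of 9 were below 0, and SLA-DMB was at -0.54 (SE 0.38). The list median of -0.39 was -0.21 without F1 TN replicate 2, -0.10 with array weights and -0.05 after the leukocyte covariate. Interferon-stimulated genes had median changes of 0.21 in F1, 0.37 in Creole and 0.08 in Large White. Their median difference was -0.07, turning to 0.07 without F1 TN replicate 2 and to 0.05 with array weights, with BST2 at -0.45 (SE 0.27). ACP5, an acid phosphatase of macrophages and osteoclasts, had changes of 1.95 in F1, 1.93 in Creole and 1.29 in Large White, a difference of 0.34 (SE 0.66).

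Fibre type genes, regeneration genes and the markers of other tissues followed. The 11 slow fibre genes had median changes of 0.10 in F1, -0.03 in Creole and -0.39 in Large White, with 10 of 11 differences above 0 and MYH7B, a slow myosin, at 0.41 (SE 0.17, unadjusted p = 0.0242). Fast fibre genes had a median difference of 0.03 (0.01 without F1 TN replicate 2), with ATP2A1, the calcium pump of fast fibres, at 0.37 (SE 0.22). MYH3, the embryonic myosin, had heat changes of 2.02, 1.75 and 1.68 in F1, Creole and Large White, a difference of 0.31 (SE 1.13), and PAX7, of muscle stem cells, was at 0.27 (SE 0.14). Both stand among 11 regeneration-linked genes with median changes of 0.49 in F1, 0.39 in Creole and 0.19 in Large White, of which 8 had a difference above 0 (median 0.26, 0.16 without F1 TN replicate 2 and 0.11 without F1 TN replicate 4). Skeletal muscle markers had a median difference of 0.02, with the giant thin-filament protein NEB at 0.60 (SE 0.42). Median differences of the remaining markers were -0.09 for connective tissue (FBN1, -0.31, SE 0.15), -0.16 for endothelium (KDR, -0.42, SE 0.29), -0.05 for blood cells (HBB, a haemoglobin chain, -0.43, SE 0.48) and -0.05 for nerve. Without F1 TN replicate 2 those of blood cells and nerve were -0.11 and -0.09.

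Glucocorticoid-responsive genes had a median difference of -0.07 (-0.05 without F1 TN replicate 2). MT1A, a metallothionein induced by zinc and glucocorticoids, was furthest from 0 at -1.82 (SE 0.92, unadjusted p = 0.0568), with F1 TN between 10.91 and 12.41 and the F1 HS arrays at 8.47, 11.59, 7.38, 10.14 and 8.90. Only 1 F1 HS array was within the F1 TN range, but 1 other MT1A probe gave a difference of 0.51. The clock gene HLF was at 0.64 (SE 0.29, unadjusted p = 0.0348), and 7 of 13 clock genes were above 0. The immediate-early genes, induced within minutes by many stimuli, had a median difference of -0.21, and ATF3, a stress-induced transcription factor, was at -1.34 (SE 0.62, unadjusted p = 0.0371), with changes of -0.76 in F1, 0.97 in Creole and 0.19 in Large White. The ATF3 probe read low on some arrays, down to log2 5.73 on Large White TN replicate 3.

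At the ends of the ranking by moderated t stood mostly genes with small differences and small SEs. NPM2, a histone chaperone of the egg, had the highest t, with a difference of 0.47 (SE 0.11, unadjusted p = 0.000185) and heat changes of 0.34 in F1, -0.06 in Creole and -0.20 in Large White. It was followed by SCD and then RNF169 (0.36), CCNA1 (0.41), MXD1 (0.44), SRRM4 (0.37), the melanocortin receptor MC1R (0.45), GRIN2B (0.50), NDUFB9 and STRA6 (0.72). The brightest STRA6 probe had changes of 0.08 in F1, -0.68 in Creole and -0.60 in Large White, unlike the 2 probes called within F1, but all 3 gave a difference above 0. The 1 other probe of MXD1 had the opposite sign (-0.12). At the other end stood UIMC1 (-0.31), LSM6 (-0.61), C5orf22 (-0.52), CPSF4 (-0.61), ADAP1 (-0.39), DRAM1, SLC25A17 (-0.71), NOL11 (-0.30), APBB2 (-0.41) and FANCL (-0.79). The second probes of CPSF4 and NOL11 had the opposite sign.

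DRAM1, a lysosomal membrane protein that promotes autophagy, had the largest difference among these lowest 10. The DRAM1 probe read 5.51, 6.16, 5.75, 5.89 and 6.18 (log2) on the 5 F1 HS arrays and 5.49, 6.41 and 7.17 on the F1 TN arrays. It read 4.95, 5.50 and 6.34 in Creole TN, 5.47, 6.36 and 7.35 in Creole HS, 5.38, 5.93 and 6.77 in Large White TN and 5.89, 6.48 and 7.25 in Large White HS. F1 HS was the narrowest group and lay low, whereas the parental HS groups reached higher values. It was well above background on 3 of 6 Creole TN arrays and on 5 or more arrays of every other group, and its difference was -1.20 (SE 0.38, unadjusted p = 0.00309), with changes of -0.46 in F1, 0.95 in Creole and 0.53 in Large White. APBB2 was likewise near background, well above it on 3 of 5 F1 HS arrays. Log2 values were similarly low for CCNA1 (5.69 to 6.41 over all arrays), ADAP1 (5.68 to 6.49) and FANCL (5.67 to 7.56). GRIN2B, among the 10 highest, was also low, at 5.77, 6.24 and 6.18 on Creole HS replicates 1, 2 and 3.

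In 6 further genes with large heat changes, F1 was within 1 SE of the parental mean. NEFH, a neurofilament protein, was higher in HS by 1.74 in F1, 2.22 in Creole and 1.70 in Large White, AWN, a spermadhesin, by 1.91, 1.93 and 0.94, and CLU, the extracellular chaperone clusterin, by 1.37, 1.78 and 1.34. TFRC, the transferrin receptor, had heat changes of -0.91, -1.31 and -0.67, HBB of -1.50, -1.23 and -0.91, and BTC, the growth factor betacellulin, of -1.0, -0.80 and -0.63, each in the order F1, Creole and Large White. The differences between F1 and the parental mean for these 6 genes were -0.21 (SE 0.78), 0.47 (SE 0.53), -0.19 (SE 0.56), 0.08 (SE 0.49), -0.43 (SE 0.48) and -0.28 (SE 0.34) in that order. The AWN probe read only 5.08 to 6.11 (log2) in Large White TN, as low as the genes near background above. The size of its heat changes is therefore uncertain. In addition, ND2, encoded by mitochondrial DNA, was at 0.22 (SE 0.18) and IDH3G of the TCA cycle at 0.28 (SE 0.15).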

How the data were processed

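Muscle RNA was hybridised to 35 one-colour Agilent arrays read with Feature Extraction 10.10.1.1, per the labels. The deposited table holds log2 values of the median spot intensity, which the authors filtered on background and quantile-normalised, for 40649 probes. Set against the intensity of the deposited scanner files, all 35 columns matched their own arrays best (lowest r 1.0), and 59 values of 52 probes were missing, which limma left out of those probes' fits. No spot was saturated. Symbols came from RefSeq accessions (8386 probes) or from the scanner files (11849), in all 20235 probes (49.8%) for 9474 genes, each represented by its probe with the highest mean.

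Group means were fitted to all 35 arrays with limma 3.58.1 in R 4.3.3, with eBayes and Benjamini-Hochberg adjustment over all probes at a threshold of 0.05. The methods' random terms (pen, slaughter day and parents) are not in the labels and were not fitted, so p-values measure the spread between arrays taken as independent animals. The scripts were tested on simulated data. Intervals are unadjusted, at 95%, and the number of arrays limits the precision. A random slide block had a correlation of 0.0588.

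Named were the 10 highest and 10 lowest moderated t of the contrast, a fixed list of genes, the 5 largest rises and falls of the average heat change and the member of each list with the lowest p, some of which are not reported here. Others are said to be chosen after their values were seen, or are members of lists given as examples. The contrast, its 33 gene lists (550 genes, 492 measured) and the fixed genes were chosen with earlier results of these data known. Alternatives were scalings, background correction, filters, slide blocks, array weights, covariates, a shared parental heat effect, 1 probe per gene and leaving out each array. The adipocyte covariate, the pair of arrays left out together and the list of fatty acid and triglyceride synthesis were chosen after seeing the data.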

Additional observations from a re-analysis of the deposited data

Results flagged for a closer look

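Of 666 groups of 5 or 6 arrays tested over 111 items (named genes, list means and array measures), 46 had a highest or lowest array whose gap to its nearest neighbour was a large share of the range of the group, where chance alone gives about 33.3. The number in brackets is that share of the range, 1 array being far from the rest. In F1 TN the highest array was far from the others at replicate 2 for HSP90 and chaperonins (0.762), HSP70 and HSP110 (0.66), HSP40 co-chaperones (0.663), antioxidant enzymes (0.729) and endoplasmic reticulum folding (0.66), replicate 4 for AKR1C1 (0.657) and endothelial markers (0.644) and replicate 6 for NDUFB9 (0.686). In F1 TN the lowest array was far from the others at replicate 2 for slow fibre genes (0.713) and replicate 4 for ECHS1 (0.656). In F1 HS the lowest array was far from the others at replicate 2 for fast fibre genes (0.724) and replicate 4 for CCNA1 (0.773) and SRRM4 (0.882). In F1 HS the highest array was far from the others at replicate 1 for glucocorticoid-responsive genes (0.825), replicate 2 for HSPB1 (0.811) and small heat shock proteins (0.899) and replicate 3 for IGF2 (0.84). In Creole TN the highest array was far from the others at replicate 1 for ATP2A1 (0.724) and GYS1 (0.732), replicate 2 for UIMC1 (0.657) and HSP70 and HSP110 (0.723), replicate 4 for nerve and Schwann cell markers (0.649), replicate 5 for FBXO32 (0.656) and replicate 6 for IGF2 (0.828). In Creole TN the lowest array was far from the others at replicate 1 for PDK4 (0.642) and connective tissue markers (0.724), replicate 2 for ECHS1 (0.859) and skeletal muscle markers (0.824) and replicate 3 for blood cell markers (0.666). In Creole HS the highest array was far from the others at replicate 2 for IDH3G (0.718) and replicate 5 for ADAP1 (0.749). In Creole HS the lowest array was far from the others at replicate 1 for ATP2A1 (0.645) and replicate 2 for HSP90AA1 (0.727). In Large White TN the lowest array was far from the others at replicate 1 for C5orf22 (0.662), replicate 3 for the percent of probes well above background (0.675) and MHC class II (0.658) and replicate 6 for PHKA1 (0.643) and PKM (0.646). In Large White TN the highest array was far from the others at replicate 1 for IDH3G (0.668) and endothelial markers (0.749). In Large White HS the highest array was far from the others at replicate 1 for HSPA4 (0.712), replicate 3 for RNF169 (0.665) and replicate 5 for DNAJB11 (0.66) and PSMA1 (0.641). In Large White HS the lowest array was far from the others at replicate 4 for SCD (0.793) and replicate 5 for PKM (0.707). F1 TN replicate 2 recurs for the means of stress lists, and the list medians that moved by more than 1.5 times or past 0 without it are given with the results above.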

How the results depend on the processing

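No probe was called for the F1 contrast, for F1 against either parent, for Creole against Large White or for the interaction in any alternative run or with any 1 array left out. The smaller F1 change along the common heat direction kept its sign, at -0.01 with array brightness as a covariate, but had a median of 0.0161 when the leukocyte mean was the covariate. Of 77 named genes none had an adjusted p below 0.05 under any of the 4225 gene and setting pairs. The median list value was above 0 in 18 to 21 lists with 1 array left out and in 6 with spike-in scaling. Probes at an unadjusted p below 0.05 numbered 2218 and became 541 with 1 probe per gene, 3479 with array weights, 1473 with array brightness and 1438 with the adipocyte mean as a covariate, and probes called for the average heat change, 6261, became 1814, 9631 and 1953 under the first 3 of these and 2245 when the leukocyte mean was the covariate. The share of heat-responsive probes with the smallest change in F1, 61.6%, was 36.0% after brightness and 31.4% with the leukocyte mean taken as covariate. This share and the median along the common heat direction were taken over the probes called in each run, also with 1 array left out. They therefore describe differing sets of probes. Except for the 1 probe per gene setting, which tests fewer features, the cause was not tested.

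With 1 array left out, probes at an unadjusted p below 0.05 ranged from 1589 (without F1 TN replicate 2) to 3051 (without Large White TN replicate 6), probes called for the average heat change from 4977 (without F1 HS replicate 4) to 7862 (without Large White TN replicate 6), the median difference from -0.15 to -0.08, the share from 52.1% to 69.4% and the slope from 0.30 to 0.56. Some named genes changed sign. With array weights the sign turned for PYGM (-0.0141), MYH3 (-0.127), IGF2 (-0.166) and UCP3 (-0.324). With array brightness as a covariate the sign turned for PYGM (-0.00413), PDHA1 (-0.0505), PRDX4 (-0.048) and UCP3 (-0.115). With spike-in scaling the sign turned for LDHB (-0.0717), PDHA1 (-0.0279), HSPE1 (-0.124), HSPB1 (-0.0398), SOD1 (-0.116), PRDX4 (-0.173), AKR1C1 (-0.023), TFRC (-0.136), UCP3 (-0.105) and PDHB (-0.041). With the leukocyte mean as a covariate the sign turned for PDHA1 (-0.0325), HSP90AA1 (0.0254), PRDX4 (-0.0546), LYZ (0.207, itself part of that mean), CLU (0.354), NEFH (0.277) and UCP3 (-0.194). With the adipocyte mean as a covariate the sign turned for PDHA1 (-0.0505), HSPE1 (-0.0533), HSPB1 (-0.106), PRDX4 (-4.35e-04), CLU (0.0219), NEFH (0.205) and TFRC (-0.358). When Large White TN replicate 3 and F1 TN replicate 6 were both left out, the sign turned for PDHA1 (-0.022), PRDX4 (-0.0338), CLU (0.107), NEFH (0.174) and UCP3 (-0.0713). With slide as a fixed block the sign turned for HSPE1 (-0.0618), HSPB1 (-0.0879), SOD1 (-0.0083) and PRDX4 (-0.0112). With slide as a random block the sign turned for HSPE1 (-0.0135). With median scaling the sign turned for PRDX4 (-0.0141). With 1 array left out, the ranges of those that crossed 0 were PDHA1 (-0.0139 to 0.299), HSPE1 (-0.0674 to 0.075), HSPB1 (-0.13 to 0.174), SOD1 (-0.00411 to 0.0853), PRDX4 (-0.0427 to 0.0778), MYH3 (-0.25 to 0.65), CLU (-0.443 to 0.0225), IGF2 (-0.368 to 0.327), NEFH (-0.627 to 0.192), TFRC (-0.137 to 0.385) and UCP3 (-0.157 to 0.483). Beside spike-in scaling, list medians turned past 0 as follows. With the leukocyte mean as a covariate these were HSP90 and chaperonins (0.01), small heat shock proteins (0.12), proteasome subunits (0.02), connective tissue markers (0.01), fasting fuel genes (-0.01), fast fibre genes (-0.00435) and fatty acid uptake and oxidation (-0.01). With array brightness they were fast fibre genes (-0.01), fatty acid uptake and oxidation (-0.01), the pyruvate dehydrogenase complex (-0.01) and small heat shock proteins (0.08), and with array weights HSP90 and chaperonins (0.01), aldo-keto reductases (-0.00485), fast fibre genes (-2.19e-04), interferon-stimulated genes (0.05), proteasome subunits (0.01) and small heat shock proteins (0.06). Scaling to the 75th percentile turned HSP90 and chaperonins (0.04), antioxidant enzymes (0.04), nerve markers (0.01), proteasome subunits (0.01) and small heat shock proteins (0.09). Nerve markers or small heat shock proteins turned under median scaling, normexp, the stricter background filter, the fixed slide block and the pair of arrays left out. With 1 array left out, medians that crossed 0 were HSP90 and chaperonins (-0.10 to 0.03), aldo-keto reductases (-0.07 to 0.12), blood cells (-0.11 to 0.03), interferon-stimulated genes (-0.15 to 0.07), nerve (-0.10 to 0.07), proteasome subunits (-0.05 to 0.02) and small heat shock proteins (-0.18 to 0.06). The cause was not tested. No paired analysis was possible because the labels give no replicate numbers that pair the samples, which were numbered in accession order. Groups of 5 or 6 arrays, with a median unadjusted 95% half-width of 0.33 log2, limit what can be resolved, and more so after adjustment.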
